A study of Rattus norvegicus with 36 samples.

Results

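The genes described here build cholesterol in the liver cell, sense it, and store, move or take it up. They were chosen by name: 31 listed genes, looked up in the platform annotation under current and older symbols, with the probe set of highest mean level standing for each gene. Of these, 28 had a probe set of their own, out of 14217 genes with one on the array. No probe set used here carried the name of Hmgcs1, Npc1 or Soat2. The measured genes fell into 7 of 8 early mevalonate steps, 11 of 11 late sterol steps, 4 of 4 regulators and 6 of 8 genes of transport, esterification and uptake. The early and late steps together are called the 18 synthesis genes below.

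RNA came from the left liver lobe of 36 male Harlan Sprague Dawley rats that entered the study at 7 weeks of age and ate NTP-2000 diet. Each received corn oil by gavage, at 5 ml per kg body weight, on 5 days in a row, and the liver was taken 1 day after the last dose. The vehicle group received the oil alone, and the other groups received DBDPE (decabromodiphenylethane, a brominated flame retardant) in it. The daily doses ran from 0.1 mg/kg through 0.97, 9.71 and 97.1 mg/kg to 970 mg/kg. Each group held 6 numbered samples, taken here as 1 rat each. The labels do not say more on how the samples relate, so the tests measure the spread between these samples.

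Cholesterol synthesis starts from acetyl-CoA. The early enzymes make mevalonate and then farnesyl diphosphate, and the late enzymes join farnesyl units into squalene, close the ring to lanosterol and trim lanosterol to cholesterol. Transcription of this pathway is driven by SREBP-2, the product of Srebf2. Scap escorts SREBP-2 to the Golgi for cleavage when membrane sterol is low, and the Insig proteins hold the complex back in the endoplasmic reticulum when sterol is plentiful. Liver is the main organ of cholesterol synthesis and of its removal as bile acid, so these genes are well expressed there.

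The deposited values are log2 signals of Affymetrix 3′ arrays, in which a difference of 1 is a doubling. The array medians lay between 5.07 and 5.12, and 27 of the 28 members had a mean level above them. The exception was Soat1, at 3.87. Hepatocyte markers averaged 11.18 to 13.99 over the arrays, while the adrenal cortex markers Star, Cyp11a1 and Cyp11b1 averaged 2.65 to 4.35. Other lists were mixed, with pancreatic acinar markers at 4.02 to 10.14 (highest Cela1) and adipocyte markers at 3.91 to 8.93 (highest Cidec). The top doses differed from vehicle in Cyp1a1, a cytochrome P450 that responds to ligands of the aryl hydrocarbon receptor. Its log2 signal rose by 3.49 at 97.1 mg/kg and by 6.23 at 970 mg/kg (limma, adjusted p = 6.45e-10 and 9.19e-18). Whole-lobe RNA cannot tell fewer cells of a type from less RNA per cell.

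No cholesterol gene passed the test at any dose. At each of the 5 doses, 0 of 28 members had an adjusted p below 0.05 in limma, with Benjamini-Hochberg adjustment over all 31042 probe sets. The share of all probe sets past that threshold was 0% at 0.1 mg/kg, 0% at 0.97 mg/kg, 0% at 9.71 mg/kg, 0.00644% at 97.1 mg/kg and 0.00644% at 970 mg/kg. At each of the top doses these were the probe sets of Cyp1a1 and Cyp1a2. Without adjustment, the members below a p of 0.05 numbered 0, 0, 3, 1 and 1 from the lowest dose to the highest. The shares of all probe sets at that level were 4.46%, 4.92%, 5.06%, 5.42% and 4.87%, so the members' counts were near the background. The moderated F test over all doses gave 0 of 28 below an adjusted p of 0.05 and 0 below an unadjusted one, against 0.00644% and 4.18% of all probe sets. No member separated completely from vehicle at any dose, while 0.139%, 0.235%, 0.18%, 0.151% and 0.2% of all probe sets did so from the lowest dose to the highest.

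The precision of these differences was uneven across members. The 95% confidence interval of the difference from vehicle lay within 1.5-fold in either direction for 26 members at 0.1 mg/kg, 27 at 0.97 mg/kg, 24 at 9.71 mg/kg, 21 at 97.1 mg/kg and 27 at 970 mg/kg. The shares of all probe sets within that bound were 97.9%, 97.8%, 97.7%, 97.7% and 97.8% in the order of the doses. Each member's interval had the same width at every dose, so the counts changed between doses through the estimated differences. At 970 mg/kg the exception was Acat2. At 97.1 mg/kg the 7 exceptions were Acat2, Mvd, Idi1, Sqle, Msmo1, Insig1 and Stard4. The median half-width of the interval was 0.23 (log2) for the members and 0.16 for all probe sets.

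**Figure D1:**
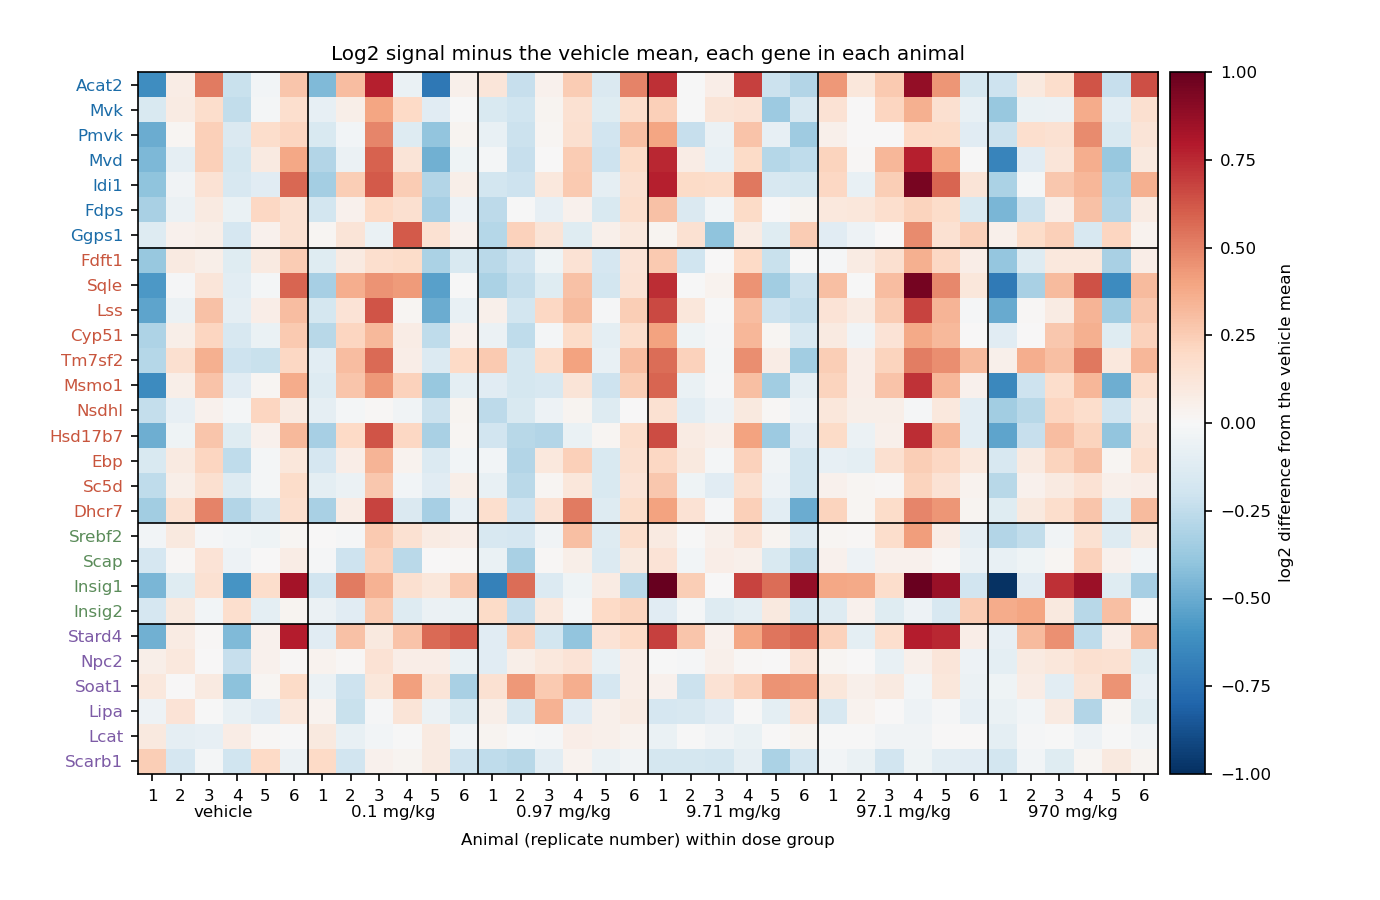
Log2 signal minus the vehicle mean for the 28 measured genes (rows, ordered by role: blue early steps, red late steps, green regulators, purple transport, esterification and uptake) in each of the 36 animals (columns, by dose and replicate number). The colour scale ends at 1 in either direction. Columns rather than dose blocks carry most of the pattern, as in vehicle replicate 1, with 0 of 18 synthesis genes above the vehicle mean, and vehicle replicates 3 and 6, with 18 of 18.

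At 97.1 mg/kg the synthesis genes lay slightly above vehicle as a body. All 7 early and all 11 late genes had a positive difference in the probe set used, with medians of 0.13 and 0.19 on the log2 scale. A further Mvk probe set, with a mean level of 4.57, gave -0.10. The remaining further probe sets of synthesis genes gave 0.01 (Ggps1) to 0.30 (Idi1). Counting regulators and handling genes, 24 of 28 members were above 0, with a median of 0.13 and a range of -0.09 to 0.44, beside 50.5% of all probe sets above 0 and a median of 0.001. These genes also varied together between animals (median pairwise r of 0.82 with dose-group means removed), so the count is not made of separate observations, and 0 of the 28 differences passed the test.

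Tm7sf2, a sterol reductase of the late steps, had the smallest p at this dose. Its log2 signal had a lowest, median and highest value of 10.63, 10.89 and 11.28 in vehicle and 10.99, 11.20 and 11.43 at 97.1 mg/kg. The groups overlapped, but the lowest vehicle animals lay below every animal at this dose. The difference was 0.30 (95% interval 0.03 to 0.58, limma, adjusted p = 0.9). Idi1, the isomerase of the isopentenyl unit, ran from 10.70 to 11.67 in vehicle (median 11.02) and from 11.02 to 12.05 at 97.1 mg/kg (median 11.32). Its difference was 0.34 (95% interval -0.02 to 0.70, limma, adjusted p = 0.95). The top animal was replicate 4, which also held the highest Sqle, Acat2, Mvd, Lss, Msmo1, Hsd17b7 and Fdft1 values of the whole set.

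At 970 mg/kg the synthesis genes were split evenly around the vehicle level, with 9 of 18 above 0 and a median difference of 0.0026. Over all members the count was 15 of 28 and the median 0.01, beside 48.1% of all probe sets above 0. This count was 11 without vehicle replicate 1 and 21 without replicate 1 of 970 mg/kg. Tm7sf2 again had the smallest p, with 10.97, 11.24 and 11.45 as its lowest, median and highest log2 signal. The difference from vehicle was 0.28 (95% interval 0.01 to 0.55, limma, adjusted p = 0.966). Ebp, which shifts a double bond in the sterol ring, ran from 10.88 to 11.32 against 10.78 to 11.25 in vehicle, a difference of 0.11 (95% interval -0.09 to 0.30, limma adjusted p = 0.976). Both dose groups were set against the same 6 vehicle animals.

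The other enzymes gave the following group values along the pathway, as mean log2 signals with the SD over 6 animals, in the order vehicle, 97.1 mg/kg and 970 mg/kg. For Acat2, the cytosolic thiolase that joins acetyl-CoA units, they were 9.51 ± 0.40, 9.83 ± 0.36 and 9.69 ± 0.39. Mvk, the mevalonate kinase, had 8.64 ± 0.17, 8.78 ± 0.15 and 8.63 ± 0.26. Pmvk, which adds the second phosphate to mevalonate, had 9.46 ± 0.28, 9.51 ± 0.12 and 9.55 ± 0.25. The animals' values overlapped between groups for each of these early genes, and also for the next enzymes. Fdps, the farnesyl diphosphate synthase, had 12.61 ± 0.19, 12.72 ± 0.13 and 12.52 ± 0.28. Ggps1, which makes the geranylgeranyl unit, had 5.52 ± 0.12, 5.64 ± 0.22 and 5.62 ± 0.15.

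In the late steps, Sqle, the squalene epoxidase, had 9.00 ± 0.37 in vehicle, 9.36 ± 0.34 at 97.1 mg/kg and 8.94 ± 0.56 at 970 mg/kg. Its lowest, median and highest values were 8.43, 8.99 and 9.59 in vehicle, 9.00, 9.31 and 9.96 at 97.1 mg/kg, and 8.29, 9.00 and 9.64 at 970 mg/kg. The top dose thus held both low and high animals for Sqle, and its difference from vehicle was -0.07 (95% interval -0.51 to 0.38, limma, adjusted p = 0.987). Lss, the cyclase that forms lanosterol, had 9.35 ± 0.31, 9.60 ± 0.24 and 9.32 ± 0.34 in the same groups. Cyp51, the lanosterol demethylase, had 12.11 ± 0.22, 12.26 ± 0.17 and 12.21 ± 0.21. Hsd17b7, a ketosteroid reductase, had 8.96 ± 0.30, 9.15 ± 0.31 and 8.87 ± 0.35. For none of these enzymes did a group mean leave the range of the vehicle animals. Nsdhl, a sterol dehydrogenase, had 11.33 ± 0.16, 11.37 ± 0.08 and 11.27 ± 0.24. Sc5d, a sterol desaturase, had 11.07 ± 0.17, 11.15 ± 0.09 and 11.09 ± 0.15. Dhcr7, the reductase at the end of the pathway, had 10.36 ± 0.33, 10.59 ± 0.20 and 10.47 ± 0.19, and its mean too stayed inside the vehicle range.

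Set directly against 97.1 mg/kg, the top dose gave lower values for 21 of 28 members, with a median difference of -0.11 and 7 members above 0, beside 47.8% of all probe sets above 0. Adjusted p-values below 0.05 were found for 0 members and 0.00644% of all probe sets. Before adjustment 4 members, each lower at 970 mg/kg, were below 0.05, beside 3.86% of all probe sets. They were Msmo1, the methylsterol monooxygenase, with a log2 difference of -0.39 (95% interval -0.73 to -0.05), Mvd, the mevalonate diphosphate decarboxylase, with -0.38 (-0.74 to -0.02), Fdft1, the squalene synthase, with -0.24 (-0.46 to -0.02), and Srebf2 with -0.18 (-0.34 to -0.01). The limma adjusted p of each was 0.999. Msmo1, Mvd and Fdft1 were named here after their values were seen. Between animals they followed the mean of the other synthesis genes (r = 0.96, 0.96 and 0.89), so they are not separate observations. With each sample left out, their differences ran from -0.48 to -0.28, from -0.47 to -0.27 and from -0.28 to -0.18. Each was smallest in size without replicate 1 of 970 mg/kg. The Srebf2 difference was -0.11 without replicate 4 of 97.1 mg/kg and -0.10 with both Srebf2 probe sets averaged, the second of which alone gave -0.01. Msmo1 ran from 11.92 to 12.60 at 97.1 mg/kg and from 11.23 to 12.21 at 970 mg/kg, and Mvd ran from 7.88 to 8.66 and from 7.22 to 8.25. The groups overlapped for both genes, as for all 28 members, while 0.135% of all probe sets did not overlap.

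A slope across the dose steps, from vehicle to 970 mg/kg, was positive in 24 of 28 members and in 18 of 18 synthesis genes, beside 48.8% of all probe sets. The synthesis genes varied together between animals, so this count too is not made of separate observations. Without vehicle replicate 1 the count of members was 18. The differences did not rise steadily, with a synthesis median of 0.17 at 97.1 mg/kg and 0.0026 at 970 mg/kg. The slopes were small, with a median of 0.01 log2 units per step and the steepest at 0.06. Adjusted p-values below 0.05 were found for 0 members and 0.00644% of all probe sets. Tm7sf2 was the member below an unadjusted p of 0.05, where 5.7% of all probe sets also lay. Its slope was 0.05 per step (95% interval 0.01 to 0.10, limma, adjusted p = 0.863).

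**Figure D2:**
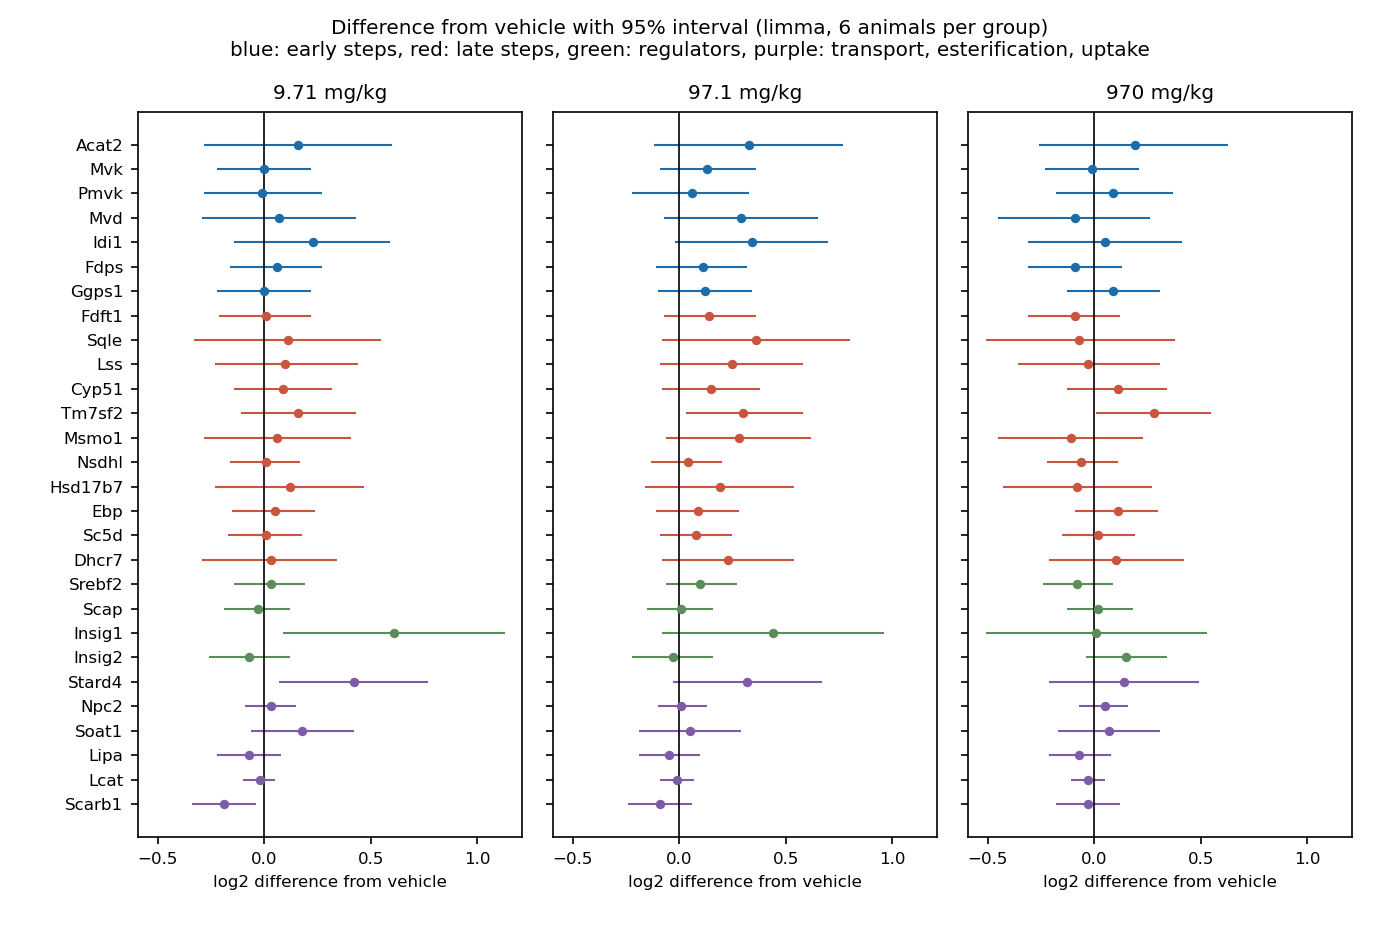
Log2 difference from vehicle (points) with its 95% confidence interval (bars) for each member at 9.71, 97.1 and 970 mg/kg, from limma with 6 animals per group. Points of the synthesis genes (blue and red) lie right of 0 for 18 of 18 genes at 97.1 mg/kg and for 9 of 18 at 970 mg/kg, and most intervals include 0.

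The lower doses gave counts that single animals decided. At 0.1 mg/kg 17 of 28 members were above 0, beside 49.6% of all probe sets, and the count was 8 without replicate 3 of that dose and 11 without vehicle replicate 1. At 0.97 mg/kg the count was 12, beside 50% of all probe sets, and 20 without vehicle replicate 6. At 9.71 mg/kg the count was 20, beside 49.1% of all probe sets, and it was 11 without vehicle replicate 1 and 12 without replicate 1 of that dose. Vehicle replicates 1 and 6 are the lowest and highest control animals for the mean of the synthesis genes.

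At 9.71 mg/kg the smallest p-values belonged to genes outside the enzyme steps. Scarb1, the HDL receptor that takes up cholesteryl ester, had a lowest, median and highest log2 signal of 8.21, 8.37 and 8.66 in vehicle and 8.09, 8.24 and 8.32 at this dose. Its difference was -0.19 (95% interval -0.34 to -0.04, limma, adjusted p = 0.967). At 97.1 and 970 mg/kg its differences were smaller, at -0.09 and -0.03. Stard4, a soluble carrier that moves cholesterol between membranes, ran from 8.01 to 9.28 in vehicle (median 8.52) and from 8.54 to 9.18 at 9.71 mg/kg (median 8.95). Its difference was 0.42 (95% interval 0.07 to 0.77, limma, adjusted p = 0.967). It was 0.32 at 97.1 mg/kg, where its range was 8.40 to 9.27 (limma, adjusted p = 0.955), and 0.14 at 970 mg/kg. With its 3 probe sets averaged, the Stard4 difference was 0.24 at 9.71 mg/kg and 0.17 at 97.1 mg/kg, and the other probe sets alone gave 0.14 and 0.16 at 9.71 mg/kg and 0.21 and -0.01 at 97.1 mg/kg. The vehicle group held both the lowest and the highest Stard4 value of all 36 animals, so the dosed groups lay inside its range.

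Among the regulators, Insig1 had the widest range. It is a classical SREBP target that in turn restrains SREBP processing. Its log2 signal ran from 10.25 to 11.68 in vehicle (median 10.86), from 10.65 to 11.36 at 0.1 mg/kg (11.05) and from 10.17 to 11.40 at 0.97 mg/kg (10.75). It ran from 10.85 to 12.14 at 9.71 mg/kg (11.46), from 10.65 to 11.83 at 97.1 mg/kg (11.22) and from 9.85 to 11.70 at 970 mg/kg (10.72). Every dose group overlapped the vehicle group, and the 970 mg/kg group spanned it. The difference was 0.61 at 9.71 mg/kg (95% interval 0.09 to 1.13, limma, adjusted p = 0.968), 0.44 at 97.1 mg/kg (-0.08 to 0.96, adjusted p = 0.971) and 0.01 at 970 mg/kg (-0.51 to 0.53, adjusted p = 0.998).

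Insig2, the second Insig protein, had a narrower range than Insig1, from 11.85 to 12.19 in vehicle (median 12.02) and from 11.74 to 12.42 at 970 mg/kg (median 12.22). At 970 mg/kg 3 of 6 animals lay above every vehicle animal and 1 lay below them all. The difference was 0.15 (95% interval -0.04 to 0.34, limma adjusted p = 0.966), and at 97.1 mg/kg it was -0.03. Srebf2 ran from 7.88 to 8.02 in vehicle, from 7.84 to 8.34 at 97.1 mg/kg and from 7.63 to 8.08 at 970 mg/kg. The vehicle animals were tightly grouped for this gene (7.92 ± 0.05, SD, n = 6), with the groups at 97.1 and 970 mg/kg spread on both sides (8.03 ± 0.18 and 7.85 ± 0.18, SD, n = 6). At 0.1, 0.97 and 9.71 mg/kg the SD was 0.10, 0.20 and 0.10, so the spread did not rise steadily with dose. Scap had group means between 8.30 and 8.39, with differences of 0.01 at 97.1 mg/kg and 0.02 at 970 mg/kg. The sign for Scap at 97.1 mg/kg turned with the arrays centred on their median, and the signs for Scap and Srebf2 at 970 mg/kg turned when all probe sets of the gene were averaged.

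**Figure D3:**
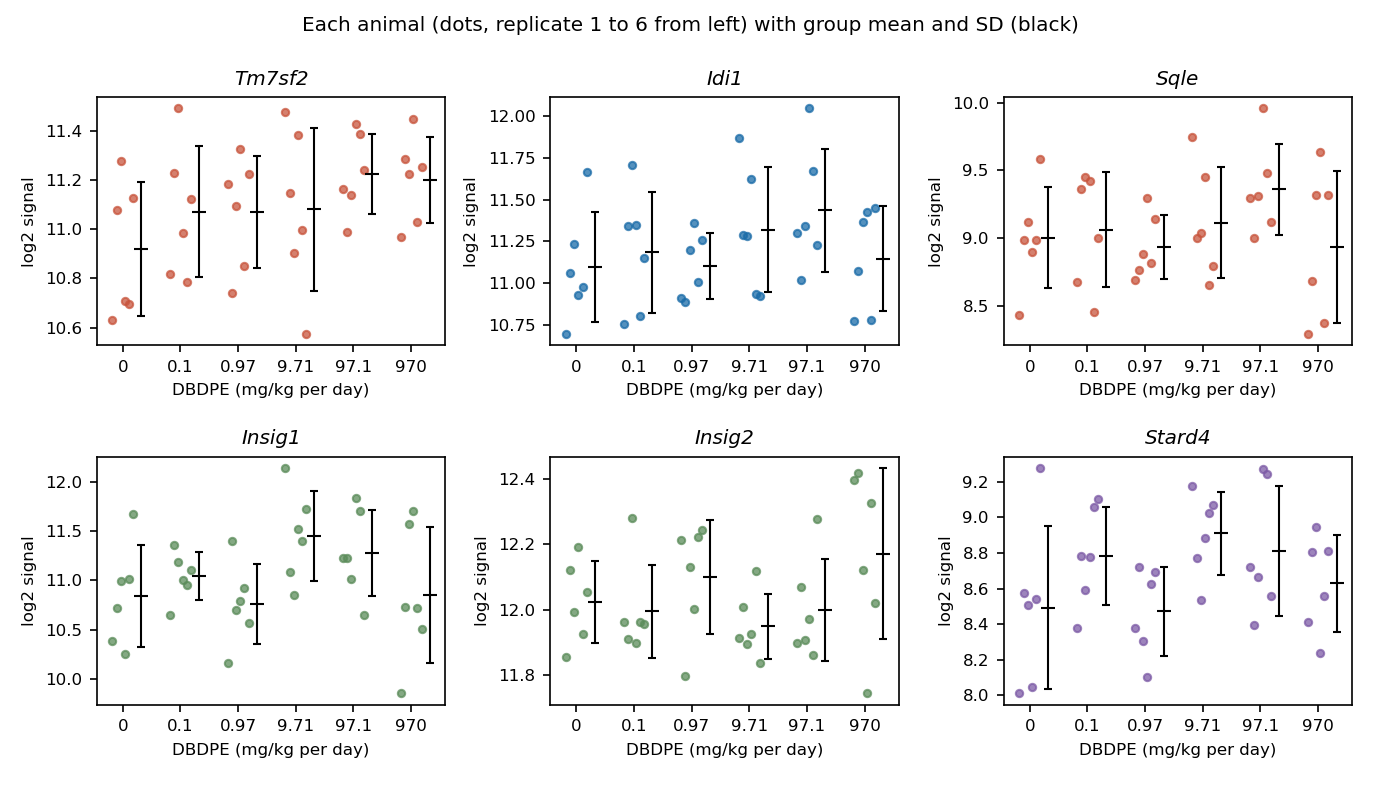
Log2 signal of Tm7sf2, Idi1, Sqle, Insig1, Insig2 and Stard4 in every animal (dots, replicate 1 to 6 from the left within each dose) with the group mean and SD (black), 6 animals per dose. Dose groups overlap in each panel, and the spread inside a group, such as 9.85 to 11.70 for Insig1 at 970 mg/kg, is larger than the steps between group means.

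The larger variation was between animals given the same dose. Around the dose-group means, the members had a median SD of 0.202 on the log2 scale, beside 0.137 for all probe sets and 0.127 for those at or above the median level. Dose groups held a median of 11.9% of a member's variance, beside 12.5% for all probe sets. Insig1 was the most variable member, with an SD of 0.48, larger than in 99.2% of probe sets. Its range of 9.85 (970 mg/kg replicate 1) to 12.14 (9.71 mg/kg replicate 1) is 4.87-fold. Sqle, a rate-controlling step of the pathway, had an SD of 0.40 and ran from 8.29 (970 mg/kg replicate 1) to 9.96 (97.1 mg/kg replicate 4), a 3.17-fold range. Acat2 also had an SD of 0.40 and ran from 8.79 (0.1 mg/kg replicate 5) to 10.39 (97.1 mg/kg replicate 4), a 3.02-fold range.

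The spread varied within each role. Early and late genes had SDs from 0.14 (Nsdhl) to 0.40, and the highest animal exceeded the lowest by 1.46-fold (Sc5d) to 3.17-fold (Sqle). In vehicle alone, Acat2 ran from 8.89 to 10.03. In the handling group Lcat, the plasma enzyme that esterifies cholesterol on HDL, had an SD of 0.05, larger than in 0.5% of probe sets. Npc2, the lysosomal sterol carrier, had 0.09, and Lipa, the lysosomal acid lipase, and Scarb1 each had 0.13. Stard4, at 0.32, and Soat1, the acyltransferase that stores cholesterol as ester, at 0.21, were wider, though Soat1 was dim on this array.

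**Figure D4:**
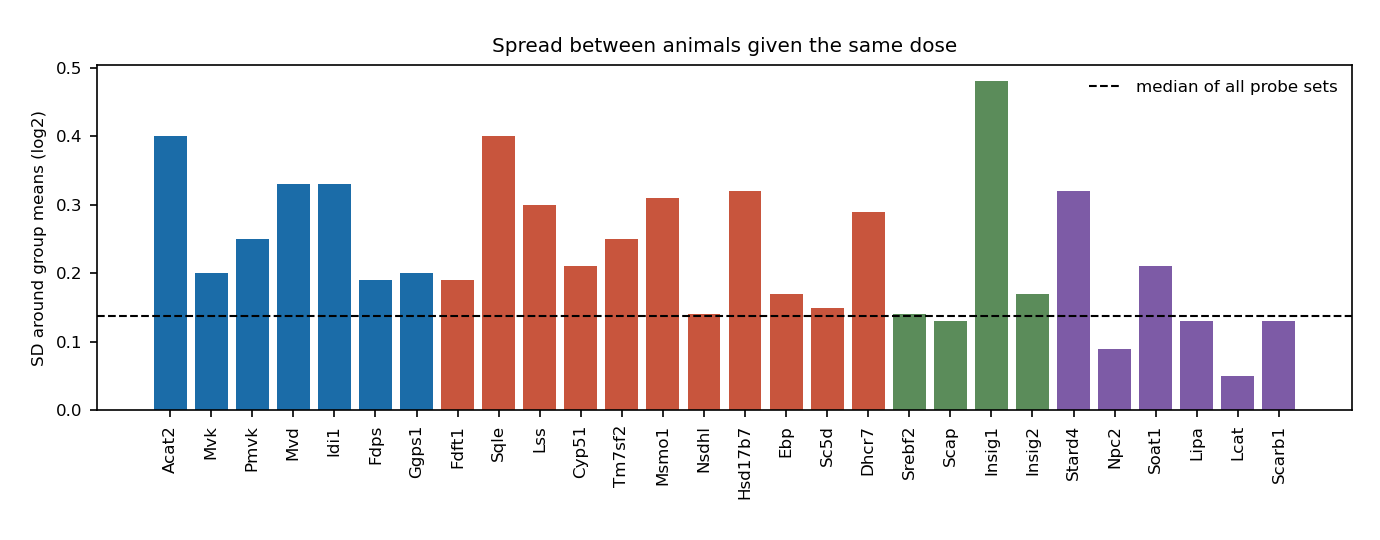
SD of the log2 signal around the 6 dose-group means for each member over 36 animals (bars, coloured by role as in the heat map), with the median of all probe sets, 0.137, as a dashed line. Insig1 (0.48), Acat2 (0.40) and Sqle (0.40) stand highest and Lcat (0.05) lowest.

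These animal differences were shared along the pathway. With the dose-group means removed, the 18 synthesis genes gave 153 pairs, of which 134 (87.6%) had a Pearson r above 0.5 over the 36 animals, with a median r of 0.82 and a range of -0.10 to 0.97. Over all pairs of genes on the array the share above 0.5 was 1.11%, and over genes at or above the median level it was 1.89%. Pairs that join a synthesis gene to a regulator or handling gene exceeded 0.5 in 43 of 180 cases, and pairs among the regulators and handling genes in 3 of 45. The levels of an animal come from the same array and normalization, and with arrays centred on their median, with each gene's probe sets averaged or with the vehicle animals left out the count stayed between 134 and 136.

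**Figure D5:**
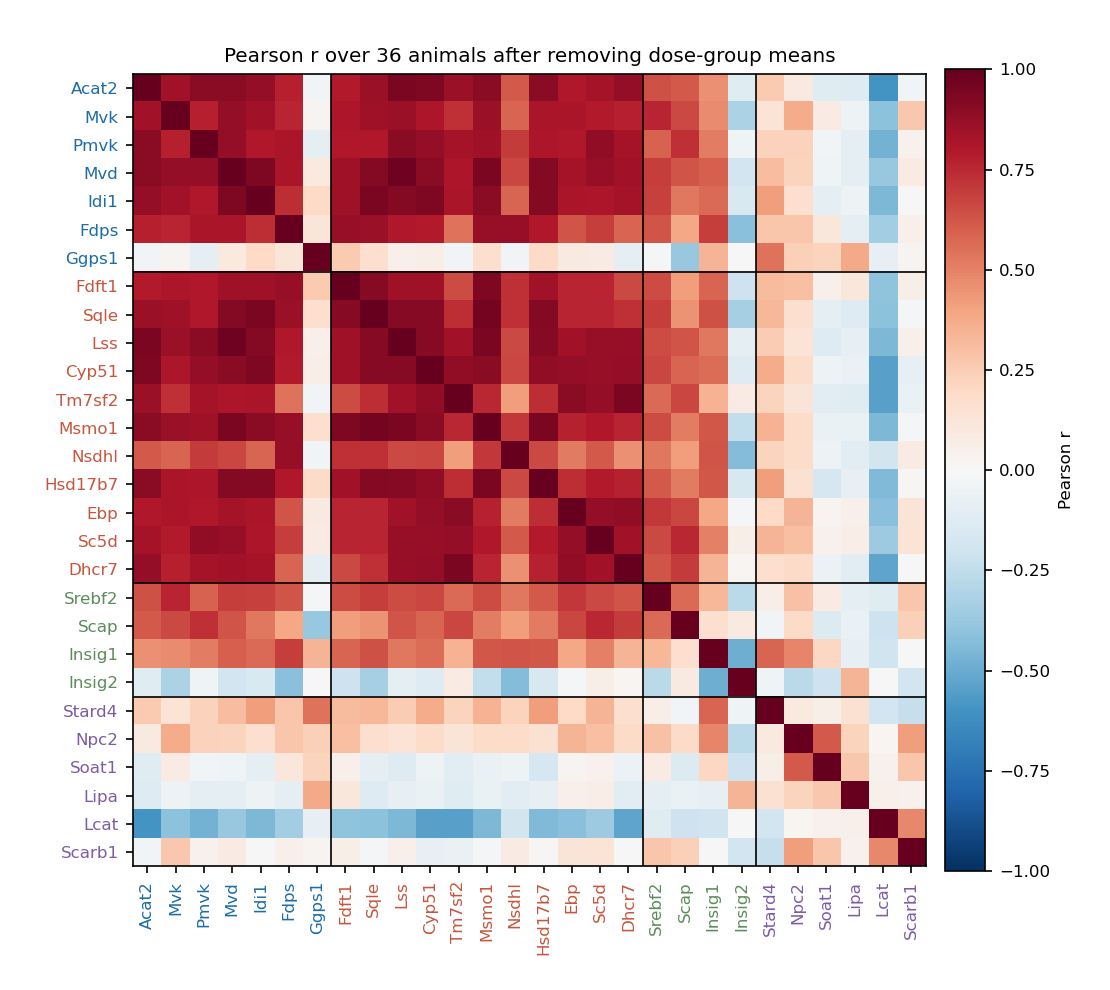
Pearson r between each pair of the 28 members over 36 animals after the dose-group means were removed, ordered by role with lines between the roles. The synthesis genes form a red block (median r 0.82), apart from Ggps1. Against the mean of the synthesis genes, Insig2 had r = -0.17, Lcat -0.49 and the other handling genes -0.06 (Lipa) to 0.34 (Stard4).

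The closest pairs were found both between early and late steps and within the late steps. Mvd, which makes isopentenyl diphosphate, and Lss, which closes the sterol ring, had r = 0.97 and rho = 0.96 over 36 animals, each with a permutation p of 1e-05, the smallest that 100000 permutations within dose groups can give. After adjustment over the 378 pairs of members these were 3.07e-05 and 3.12e-05, and r was 0.96 without the 2 animals farthest from the median. Sqle and Msmo1 had r = 0.96 and rho = 0.95, with the same p-values, and 0.95 without 2 animals. Tm7sf2 and Dhcr7, both reductases of sterol double bonds, had r = 0.94 and rho = 0.95, with the same p-values, and 0.93 without 2 animals. The correlation was also present inside each dose group of 6 animals, where the median r of the 153 pairs was 0.86 in vehicle, 0.87 at 0.1, 0.81 at 0.97, 0.84 at 9.71, 0.82 at 97.1 and 0.90 at 970 mg/kg.

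Set against the mean of the other synthesis genes, Lss followed most closely (r = 0.97), then Mvd, Cyp51 and Msmo1 (each 0.96), Idi1 (0.95) and Sqle (0.94). Acat2 and Hsd17b7 had 0.93, Pmvk 0.90, Fdft1 0.89, and Mvk and Sc5d 0.88. Ebp had 0.86, Dhcr7 0.85, Fdps and Tm7sf2 0.84, and Nsdhl 0.68. Ggps1 was the exception, with r = 0.08 and 0 of 17 pairs above 0.5. Its enzyme makes geranylgeranyl diphosphate for protein prenylation and so draws farnesyl units away from sterol synthesis. Its probe set had a mean of 5.59, near the array medians, and the other Ggps1 probe sets correlated with it at r = 0.58 and 0.49. The cause of the Ggps1 pattern was not tested.

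The regulators divided. Srebf2 followed the synthesis mean with r = 0.70, Scap with 0.61 and Insig1 with 0.60, and Insig2 did not (r = -0.17). Srebf2 exceeded 0.5 with 17 of the 18 synthesis genes, Scap with 13, Insig1 with 12 and Insig2 with 0. Mvk and Srebf2 were the closest such pair (r = 0.76, rho = 0.75, permutation p = 1e-05 for both, adjusted 3.07e-05 and 3.12e-05, r = 0.71 without 2 animals). The Insig genes ran against each other (r = -0.49, rho = -0.39, permutation p = 0.0121 and 0.0373, adjusted 0.0238 and 0.0681), a relation that fell to r = -0.33 without 2 animals and so rests partly on them. Insig1 also went with Stard4 (r = 0.58, rho = 0.56, permutation p = 0.00064 and 0.00104, adjusted 0.00148 and 0.00233), with r = 0.73 without 2 animals.

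The handling genes stood outside the synthesis pattern. Against the synthesis mean, r was 0.34 for Stard4, 0.23 for Npc2, 0.03 for Scarb1, -0.05 for Soat1 and -0.06 for Lipa. Lcat ran the opposite way (r = -0.49), within a total range of 12.34 to 12.53. Its lowest r was with Acat2 (r = -0.60, rho = -0.61, permutation p = 0.00083 and 0.00049, adjusted 0.00185 and 0.00114, r = -0.55 without 2 animals).

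Averaged over the 18 synthesis genes, the animals differed from the vehicle mean by -0.37 to 0.27 in the vehicle group (SD 0.24, n = 6). The range was -0.30 to 0.42 at 0.1 mg/kg, -0.18 to 0.20 at 0.97 mg/kg and -0.17 to 0.45 at 9.71 mg/kg. It was 0.02 to 0.51 at 97.1 mg/kg (mean 0.19 ± 0.19, SD, n = 6) and -0.33 to 0.32 at 970 mg/kg (0.02 ± 0.25, SD, n = 6). All 6 animals at 97.1 mg/kg were above the vehicle mean, 4 of them inside the range of the vehicle animals and 2, replicates 4 and 5, above it. Within the vehicle group alone, replicate 1 had 0 of 18 genes above the group mean, replicate 4 also had 0, and replicates 3 and 6 had 18 of 18.

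Genes outside the list that followed the synthesis mean were ranked by r over the 36 animals. Of 14189 genes, 113 (0.80%) had r above 0.5 and 59 (0.42%) below -0.5. At the top stood Acss2, which makes cytosolic acetyl-CoA from acetate (r = 0.93). Next came Erg28, a membrane scaffold of the sterol demethylation enzymes (0.83), Tmem254 (0.82), the receptor kinase Epha3 (0.78), the centrosomal protein gene Cetn2 (0.77), Tmem97, which encodes the sigma-2 receptor (0.77), and the malic enzyme Me1 (0.77). The rest of the top 15 were Pin4 (0.72), Aacs, which activates acetoacetate (0.71), Gstt3 (0.71), the fatty acid elongase Elovl6 (0.70), the acyl-CoA synthetase Acsl3 (0.70), Tprg1l (0.70), the fatty acid synthase Fasn (0.69) and Tmem222 (0.68). The lowest r was that of Serpina3m (-0.72). The r values are descriptions, since the rule picked these genes for their likeness.

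A further list held 40 genes of sterol sensing, efflux, bile acid synthesis and fatty acid synthesis, of which 36 were measured. None passed an adjusted p of 0.05 in any comparison with limma. At an unadjusted p below 0.05, 0 were higher and 1 lower at 0.1 mg/kg and at 0.97 mg/kg, and 0 were higher and 5 lower at 9.71 mg/kg. At 97.1 mg/kg 1 was higher and 2 were lower, and at 970 mg/kg 0 were higher and 3 lower. The shares of all probe sets below that p were 4.46%, 4.92%, 5.06%, 5.42% and 4.87% in the order of the doses. The smallest p at 970 mg/kg was that of Cyp7a1, which starts the main route from cholesterol to bile acids, with a log2 difference of -1.07 (limma, adjusted p = 0.966). It was -0.90 at 97.1 mg/kg (adjusted p = 0.9), -0.92 at 9.71 mg/kg (0.968), -0.35 at 0.97 mg/kg (0.99) and -0.68 at 0.1 mg/kg (0.999). In their animal pattern, 6 of the 36 had r above 0.5 with the synthesis mean: Me1, Aacs, Elovl6 and Fasn, named above, with Cyp8b1 (0.54), a hydroxylase of bile acid synthesis, and Acly (0.50), the citrate lyase. Srebf1, which encodes the SREBP form that drives fatty acid synthesis, had -0.21, the desaturase gene Scd -0.22 and the sterol exporter gene Abcg5 0.47.

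Measures that could differ between animals were set beside the synthesis mean. The 12 clock genes measured had r between -0.19 and 0.23 with it, and 9 genes of fasting and feeding, such as Pck1 and Pdk4, had -0.32 to 0.19. The 9 hepatocyte markers had -0.39 to 0.20, with an average level between 13.21 and 13.32 in every animal. Markers of Kupffer cells and macrophages (5 genes) had -0.13 to 0.03, of stellate cells and fibroblasts (4) -0.29 to -0.15, of bile duct (3) -0.03 to -0.02, of endothelium (4) -0.06 to 0.32, and of adipocytes (3) -0.03 to 0.06. T and NK cell markers (4) had -0.20 to 0.03, B cell markers (2) -0.22 to 0.06, red cell markers (2) -0.02 to 0.08, adrenal cortex markers (3) -0.35 to -0.02 and acinar markers (3) -0.52 to -0.14. The beta-actin 3′ to 5′ difference, a measure of RNA integrity on these arrays, had -0.05, within a range of 1.02 to 1.33. Cyp1a1 and Cyp1a2 had 0.27 and 0.29. In these lists 1 gene was past 0.5 in either direction, the acinar marker Cpa1 (r = -0.52), whose mean level of 4.07 lies below the array medians.

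Other probe sets of the members mostly repeated the pattern. The further probe sets of Idi1, Cyp51, Fdft1, Insig2, Lss and Nsdhl, and 1 of those of Mvk, correlated with the one used at r between 0.92 and 0.99 over the 36 animals. Those of Hsd17b7 and Scarb1 gave 0.87 and 0.86. The others gave 0.31 to 0.77, apart from the second Srebf2 probe set, whose mean of 3.61 lies below the array medians and which had r = -0.11.

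Because the synthesis genes varied together, promoter windows are shown for the 4 members that followed the synthesis mean most closely. RefSeq windows on GRCr8, each with 250 bases before and 50 after the annotated start, were held for 25 of the 31 listed genes, 23 of them measured. The windows shown belong to Lss (r = 0.97) and to Mvd, Cyp51 and Msmo1 (each 0.96). The windows read 5′ to 3′ along the gene, and capitals mark CCAAT, the box bound by NF-Y, on either strand (CCAAT or ATTGG). Lss is at chr20:12118181-12118480 (minus strand), Mvd at chr19:67414925-67415224 (minus strand), Cyp51 at chr4:30991443-30991742 (plus strand) and Msmo1 at chr16:29746863-29747162 (plus strand).
Lss: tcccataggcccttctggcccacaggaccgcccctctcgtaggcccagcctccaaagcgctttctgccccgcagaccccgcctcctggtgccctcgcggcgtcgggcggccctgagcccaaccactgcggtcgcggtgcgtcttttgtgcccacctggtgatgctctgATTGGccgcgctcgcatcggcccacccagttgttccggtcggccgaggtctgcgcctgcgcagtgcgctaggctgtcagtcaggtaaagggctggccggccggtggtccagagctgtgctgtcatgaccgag
Mvd: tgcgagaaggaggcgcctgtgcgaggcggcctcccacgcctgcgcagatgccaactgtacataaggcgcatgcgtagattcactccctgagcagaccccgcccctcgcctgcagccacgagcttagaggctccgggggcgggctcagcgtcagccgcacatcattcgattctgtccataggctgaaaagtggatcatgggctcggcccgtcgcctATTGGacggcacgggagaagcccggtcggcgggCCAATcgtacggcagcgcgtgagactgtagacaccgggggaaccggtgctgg
Cyp51: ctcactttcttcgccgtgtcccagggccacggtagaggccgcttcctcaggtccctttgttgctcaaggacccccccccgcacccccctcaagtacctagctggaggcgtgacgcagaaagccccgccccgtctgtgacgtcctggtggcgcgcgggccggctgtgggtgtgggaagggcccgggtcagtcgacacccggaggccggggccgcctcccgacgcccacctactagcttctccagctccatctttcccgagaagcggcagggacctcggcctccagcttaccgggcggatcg
Msmo1: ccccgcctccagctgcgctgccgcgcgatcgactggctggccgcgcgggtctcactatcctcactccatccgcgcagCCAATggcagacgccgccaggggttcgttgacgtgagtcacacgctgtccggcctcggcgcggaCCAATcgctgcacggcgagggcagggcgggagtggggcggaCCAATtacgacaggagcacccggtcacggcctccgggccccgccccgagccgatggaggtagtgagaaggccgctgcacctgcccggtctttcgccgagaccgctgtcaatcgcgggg

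Msmo1 holds 3 CCAAT boxes, Mvd 2, Lss 1 and Cyp51 0. At least 1 box was found in 20 of the 25 member windows (80%) and in 13 of 16 windows of synthesis genes, beside 37.5% of all 33469 windows and 36.8% of the 13242 windows of measured genes. Among the 15 genes outside the list that resembled them most, 7 of 12 windows held one. The Cetn2 window among these shares 242 bases with the window of the member Nsdhl, so it is not a separate sequence. GGGCGG, the Sp1 box, was in 19 of 25 member windows (76%), beside 33.1% of all windows and 55.7% of those of measured genes. GCGTG, the core letters of the aryl hydrocarbon receptor element, was in 15 of 25 (60%), beside 29.7% and 44.4%. TCACNCCAC, a strict spelling of the sterol regulatory element, was in 0 of 25, beside 1.12% and 1.07%. Each motif was searched on both strands, boxes of different motifs may overlap, and the counts describe these letters in these windows. Acat2, Cyp51 and Dhcr7, whose r with the synthesis mean was 0.93, 0.96 and 0.85, hold 0 CCAAT boxes, while Ggps1, with 0.08, holds 1. Outside the synthesis genes, Insig2, Lcat, Lipa, Soat1 and Npc2 also hold a box, with r of -0.17, -0.49, -0.06, -0.05 and 0.23. Srebf2 (0.70) and Insig1 (0.60) hold 1 each, and Scap (0.61) holds 0. Among the members the box was thus not particular to genes that followed the synthesis mean.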

How the data were processed

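Liver RNA of 36 rats was measured on Affymetrix 3′ arrays. The values the authors deposited are log2 signals, 1 for each probe set, made with RMA and affy per the submitters' processing notes, with versions not given in the sources used here. RMA corrects background, forces the arrays onto one distribution and summarises probes, which can hide a shift shared by all genes. The 57 control probe sets were left out, and 31042 remained with no filter on low values. The platform annotation gives 1 gene for 20826 probe sets, and 20758 of these matched the rat RefSeq table by Entrez ID. The precision is limited by 6 arrays per group.

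Members and lists were chosen with earlier results of these data known. Members were grouped by role. Values are given for the 3 members of smallest p at 9.71, 97.1 and 970 mg/kg, the 3 of largest residual SD and the regulators, and other members by group means, ranges and counts. Msmo1, Mvd and Fdft1 between the top doses were added after their values were seen. The series compares each dose with vehicle at a false discovery rate under 5% with R/maanova. Here R 4.3.3 with limma 3.58.1 (lmFit on 6 group means over 36 arrays, then eBayes) gave the dose differences, the slope on the dose step and the moderated F test, two-sided, with a threshold of 0.05. Spread and correlations used residuals around the group means, with permutation p-values from Python 3.11.15 and numpy 2.4.6. The scripts were tested on simulated data. For the 90 pairs of same-numbered samples, the residuals had a mean r of 0.00485, with 15 above 0.1, so the numbers were not used as pairs. Motifs were searched in RefSeq promoter windows of GRCr8. Alternatives covered scaling, low probe sets, the probe set of a gene, the variance prior, array weights, RNA quality, the samples in the fit, the threshold, a replicate block and each sample left out. In the correlations, averaging a gene's probe sets and leaving out samples were added after seeing the data.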

Additional observations from a re-analysis of the deposited data

Results flagged for a closer look

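In 6 of 168 groups of 6 animals, 1 animal lay far from the others of its dose by Dixon's test of the gap, where chance gives about 1 in 20. Fdps was 12.46 in replicate 6 at 97.1 mg/kg, below the other animals at 12.71 to 12.83. Ggps1 was 6.14 in replicate 4 at 0.1 mg/kg, above the others at 5.46 to 5.68. Sc5d was 10.80 in replicate 1 at 970 mg/kg, below the others at 11.11 to 11.21. Insig2 was 12.28 in replicate 3 at 0.1 mg/kg, above the others at 11.90 to 11.96. Vehicle replicate 4 was low for Npc2, at 10.42 beside 10.66 to 10.76, and for Soat1, at 3.38 beside 3.80 to 3.98.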

How the results depend on the processing

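The count of members past an adjusted p of 0.05 was 0 for each dose, for 970 against 97.1 mg/kg and for the slope, under every alternative run and with each sample left out. It was also 0 at a threshold of 0.1. The 20 member differences followed through the alternatives never passed the threshold (smallest adjusted p 0.713), and 5 of them changed sign. Scap at 97.1 mg/kg was -0.0043 with arrays centred on their median, and -0.03 to 0.03 with each sample left out. At 970 mg/kg, with all probe sets of a gene averaged, Srebf2 was 0.03 and Scap -0.02, and Scap was -0.02 to 0.05 with each sample left out. Insig1 at 970 mg/kg was -0.06 with array weights and -0.16 to 0.20 with each sample left out. Insig2 at 97.1 mg/kg was -0.08 to 0.01 with each sample left out. The cause was not tested.

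With each sample left out, the members above 0 numbered 8 to 23 at 0.1 mg/kg, 8 to 20 at 0.97 mg/kg and 11 to 23 at 9.71 mg/kg. They numbered 22 to 24 at 97.1 mg/kg, 11 to 21 at 970 mg/kg, 6 to 9 for 970 against 97.1 mg/kg and 18 to 24 for the slope. The synthesis pairs with r above 0.5 numbered 133 to 136. With the replicate block, 0 members were called at each dose and 24 were above 0 at 97.1 mg/kg, and no call changed. A filter at the median level left 27 members. Dim probe sets such as that of Soat1 carry little signal over background, which limits what they can show.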

Other observations

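Cetn2 and Nsdhl lie head to head on chromosome X of GRCr8, on opposite strands, and their promoter windows share 242 bases. Cetn2 was among the genes most like the synthesis mean (r = 0.77), and this pair was chosen after its values were seen. Cetn2 and Nsdhl had r = 0.68 over the 36 animals, and 13 of the other synthesis genes had a higher r with Cetn2 (median 0.69, range -0.03 to 0.81).

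Clock genes were lower at 970 mg/kg in 4 of 12 cases at an unadjusted p below 0.05, with 0 past the adjusted threshold in limma, beside 4.87% of all probe sets at that unadjusted p. Whether the clock genes vary together between animals was not tested, so the 4 cases may not be separate observations. The log2 differences were -0.63 for Dbp, -0.61 for Nr1d1, -0.47 for Nr1d2 and -0.23 for Cry2 (adjusted p = 0.966 each). Similar values were found at lower doses for Cry2 (-0.24 at 0.97, -0.28 at 9.71 and -0.25 at 97.1 mg/kg) and for Nr1d2 (-0.47 at 0.97 mg/kg). For these genes, r with the synthesis mean lay between -0.07 and 0.07.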
